A study of Mus musculus with 42 samples.

Results

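The gene of the transcription factor p53, *Trp53*, and 9 genes that are well known to respond to it (*Cdkn1a*, *Mdm2*, *Bbc3*, *Bax*, *Ccng1*, *Pmaip1*, *Trp53inp1*, *Phlda3* and *Sesn2*) were followed in mouse spermatogonia with and without the chromatin remodeler CHD8. These 10 genes were taken by name from a count table of 27179 genes, and all 10 were found in it by gene ID and passed the filter on low counts in every comparison. Messenger RNA was sequenced from 12 libraries, 3 in each of 4 groups, from testes of C57BL/6J males at 10 days post-partum (dpp). Control mice were *Ddx4-Cre/Chd8+/F* and conditional knockout (CKO) mice were *Ddx4-Cre/Chd8F/-*, so both genotypes carried the Cre transgene and a floxed *Chd8* allele. Cre driven by *Ddx4* acts in germ cells, so any somatic cell in a library was spared the deletion of its floxed allele. Somatic cells of CKO mice were heterozygous for *Chd8*, while those of control mice kept both alleles. Germ cells of control mice kept only the wild-type allele once Cre had acted, so the germ cell control was heterozygous. From each genotype, c-Kit+ cells, which are mostly differentiating spermatogonia, were retained first on magnetic beads, and Thy1+ cells, which are enriched for undifferentiated spermatogonia, were retained from the flow-through. Testes of 3 male pups were used for each analysis. Whether each library came from a single pup or a pool is not stated in the sources used here, so p-values measure the spread between libraries, which may be technical in part.

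The p53 protein is held at a low level in unstressed cells because MDM2, itself the product of a p53 target gene, marks it for degradation. DNA damage and other stresses lift that restraint, p53 accumulates, and it binds a response element made of paired half-sites near genes that stop the cell cycle, repair DNA, adjust metabolism or start apoptosis. The control is exerted largely on the protein, so the *Trp53* transcript and the transcripts of its targets are different readouts. In male germ cells, p53 is known for the removal of spermatogonia with damaged DNA. CHD8 has been described in other cells as a factor that restrains p53 by recruiting linker histone H1 to target promoters.

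Library totals ranged from 32266861 to 45396233 counts. Levels are given as CPM, counts relative to the library's total, scaled over all 12 libraries by edgeR's trimmed mean of M-values (TMM), in the order of replicates 1, 2 and 3. *Chd8* had 278, 272 and 259 CPM in control and 298, 258 and 267 CPM in CKO Thy1+ libraries. It had 263, 305 and 274 CPM in control and 304, 316 and 297 CPM in CKO c-Kit+ libraries. Recombination removes exons 11 to 13 only, so counts over the whole gene do not check the genotype labels. The sorting antigens did separate the populations, since *Thy1* was 18.7-fold higher and *Kit* was 0.438 of the c-Kit+ level in control Thy1+ libraries. The levels there were low for *Thy1*, at 14.2, 11.7 and 11.9 CPM, and uneven for *Kit*, at 171, 393 and 298 CPM. Which cells of a library made these transcripts was not measured. All 8 germ cell markers (*Ddx4*, *Dazl*, *Sall4*, *Uchl1*, *Zbtb16*, *Sohlh1*, *Mael* and *Tex101*) were present, with a summed level of 1953 to 2788 CPM in control and 1433 to 2274 CPM in CKO Thy1+ libraries, and of 3005 to 3467 CPM in control and 2365 to 2692 CPM in CKO c-Kit+ libraries. Somatic markers were present as well. The 6 stromal markers (*Col1a1*, *Col1a2*, *Col3a1*, *Dcn*, *Pdgfra* and *Lum*) summed to 10996 to 14323 CPM in control and 12304 to 18949 CPM in CKO Thy1+ libraries, against 1794 to 2241 CPM in control and 3250 to 4320 CPM in CKO c-Kit+ libraries. In such bulk samples, fewer cells of a type and less RNA per cell cannot be told apart.

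Between genes, levels were compared per kilobase of exon (RPKM, from the TMM-scaled CPM). *Bax*, whose protein permeabilises the outer mitochondrial membrane, had the highest level of the 10 genes, at 91.9 RPKM as the mean of the 4 groups. *Mdm2* followed at 41.8 RPKM and *Trp53* at 38.4 RPKM. *Phlda3*, *Trp53inp1*, *Ccng1* and *Sesn2* formed a middle range from 25.3 to 18.3 RPKM. *Pmaip1* at 5.99 RPKM, *Cdkn1a* at 4.25 RPKM and *Bbc3* at 3.51 RPKM were the lowest.

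**Figure D1:**
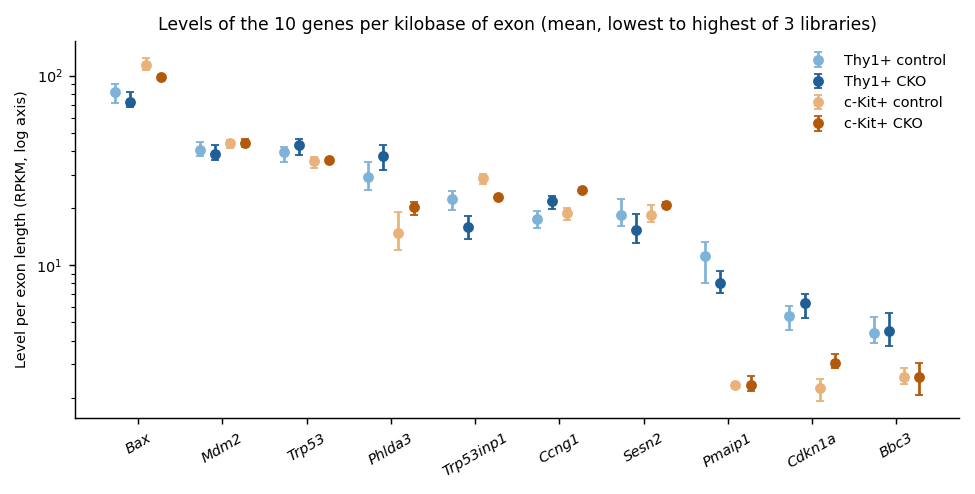
Level per kilobase of exon (RPKM, log axis) of the 10 genes, ordered by the mean of the 4 groups; points are means and bars run from the lowest to the highest of 3 libraries. Bax was highest (91.9 RPKM) and Bbc3 lowest (3.51 RPKM), and the Thy1+ points lie above the c-Kit+ points for Phlda3, Pmaip1, Cdkn1a and Bbc3.

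*Trp53* (gene ID 22059, chromosome 11, 69580359 to 69591873, plus strand, 11 exon blocks, mm10) encodes p53 itself. It had 78.4, 65.6 and 76.8 CPM in control and 82.7, 70.7 and 86.8 CPM in CKO Thy1+ libraries. It had 69.3, 61.2 and 67.8 CPM in control and 66.7, 66.3 and 68 CPM in CKO c-Kit+ libraries. The Thy1+ libraries of replicate 2 were the lowest of their groups, and each group overlapped its neighbour in the order of the 4 means.

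*Mdm2* (gene ID 17246, chromosome 10, 117688905 to 117710716, minus strand, 12 exon blocks) encodes the ubiquitin ligase that degrades p53. It had 113, 136 and 119 CPM in control and 109, 130 and 113 CPM in CKO Thy1+ libraries. The c-Kit+ libraries had 125, 136 and 138 CPM in controls and 132, 139 and 128 CPM in CKO. All neighbouring groups overlapped, and the group means ran from 117 to 133 CPM.

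*Cdkn1a* (gene ID 12575, chromosome 17, 29090986 to 29100722, plus strand, 4 exon blocks) encodes p21, the inhibitor of cyclin-dependent kinases through which p53 stops the cell cycle. A search for the p53 response element (paired 10-base half-sites with no spacer, both core tetramers intact, at most 2 mismatches in 20 bases, a pattern that reads the same on both strands) covered 3000 bases on either side of the first counted base of 27080 genes. With at most 1 mismatch, 228 genes (0.842%) held a match, among them *Cdkn1a* and *Ccng1*. With at most 2 mismatches, 1028 genes (3.8%) did, *Pmaip1* being the third of the 10 genes, and with none, 37 genes (0.137%) and none of the 10. The 100 bases before the first counted base of *Cdkn1a* are shown because they hold its match in full (chr17:29090886-29090985, plus strand, RefSeq sequence of GRCm38.p6, the assembly behind mm10), with the matching 20 bases in capitals.
Cdkn1a upstream: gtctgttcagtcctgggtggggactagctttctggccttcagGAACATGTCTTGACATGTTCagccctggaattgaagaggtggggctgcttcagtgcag
The match lies at chr17:29090928-29090947, 58 bases before the first counted base, with 1 mismatch. That base opens the outermost exon counted for the gene, and where transcription started in these cells was not measured. A match is a description of the sequence, and no p53 binding was measured here.

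*Cdkn1a* had 12.4, 9.22 and 11.1 CPM in control and 13.4, 10.6 and 14.3 CPM in CKO Thy1+ libraries. The level in c-Kit+ libraries was 4.69, 5.09 and 3.89 CPM in controls and 5.84, 5.92 and 6.86 CPM in CKO. All 6 Thy1+ libraries were above all 6 c-Kit+ libraries, and the CKO c-Kit+ libraries were all above their controls.

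*Ccng1* (gene ID 12450, chromosome 11, 40748552 to 40755286, minus strand, 6 exon blocks) encodes cyclin G1, which recruits a phosphatase that acts on MDM2. Its match to the response element, with 1 mismatch, lies in an intron 331 bases after the first counted base (chr11:40754936-40754955, minus strand, GRCm38.p6), and is shown with the core tetramers in capitals.
Ccng1 intron: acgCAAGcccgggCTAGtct
*Ccng1* had 54.7, 62.3 and 67.2 CPM in control and 68.9, 81 and 76.7 CPM in CKO Thy1+ libraries. In the c-Kit+ population these values were 66.5, 60.8 and 69.9 CPM in controls and 87.3, 86.9 and 87.2 CPM in CKO. In both populations every CKO library was above every control library.

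*Bbc3* (gene ID 170770, chromosome 7, 16309583 to 16318334, plus strand, 4 exon blocks) encodes PUMA, a BH3-only protein that triggers apoptosis. It had 7.85, 7.65 and 10.5 CPM in control and 7.41, 8.26 and 11.1 CPM in CKO Thy1+ libraries. It had 4.86, 4.69 and 5.69 CPM in control and 4.07, 5.16 and 5.99 CPM in CKO c-Kit+ libraries. The genotypes overlapped in both populations, and the populations did not overlap in either genotype.

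*Pmaip1* (gene ID 58801) encodes NOXA, another BH3-only protein. It had 35, 33 and 21.4 CPM in control and 20.6, 24.7 and 18.9 CPM in CKO Thy1+ libraries. In c-Kit+ libraries it had 5.94, 6.38 and 6.19 CPM in controls and 5.76, 6.89 and 5.96 CPM in CKO. Control Thy1+ replicate 3 lay among the CKO libraries, and all Thy1+ libraries were far above all c-Kit+ libraries.

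*Bax* (gene ID 12028, chromosome 7, 45461695 to 45466898, minus strand, 6 exon blocks) had 62.4, 78.5 and 72.7 CPM in control and 59.3, 71.2 and 59.4 CPM in CKO Thy1+ libraries. It had 108, 92.6 and 97 CPM in control and 87.4, 84.3 and 85.2 CPM in CKO c-Kit+ libraries. Here the order was the opposite of that of the BH3-only genes, with the c-Kit+ libraries above the Thy1+ libraries.

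*Trp53inp1* (gene ID 60599, chromosome 4, 11156441 to 11174377, plus strand, 5 exon blocks) encodes a stress-induced nuclear protein that promotes p53 activity and autophagy. It had 106, 133 and 122 CPM in control and 74.9, 99.1 and 83.3 CPM in CKO Thy1+ libraries. The c-Kit+ libraries had 145, 161 and 164 CPM in controls and 127, 123 and 122 CPM in CKO. Every CKO library was below every control library of its population.

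*Phlda3* (gene ID 27280, chromosome 1, 135766085 to 135769134, plus strand, 2 exon blocks) encodes a pleckstrin-homology protein that restrains AKT. It had 39.8, 36.4 and 51.3 CPM in control and 55.4, 46.3 and 63.2 CPM in CKO Thy1+ libraries. In c-Kit+ libraries it had 19, 17.6 and 27.9 CPM in controls and 30.1, 27 and 31.6 CPM in CKO. Control c-Kit+ replicate 3 stood well above the other controls and overlapped the CKO libraries.

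*Sesn2* (gene ID 230784, chromosome 4, 132492804 to 132510456, minus strand, 10 exon blocks) encodes sestrin 2, a leucine sensor that restrains mTORC1. It had 58.9, 45.7 and 42.4 CPM in control and 49.2, 38.6 and 34.9 CPM in CKO Thy1+ libraries. In c-Kit+ libraries it had 47, 45 and 54.9 CPM in controls and 52.8, 56.9 and 56.1 CPM in CKO. No neighbouring groups were apart in the order of the 4 means.

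**Figure D2:**
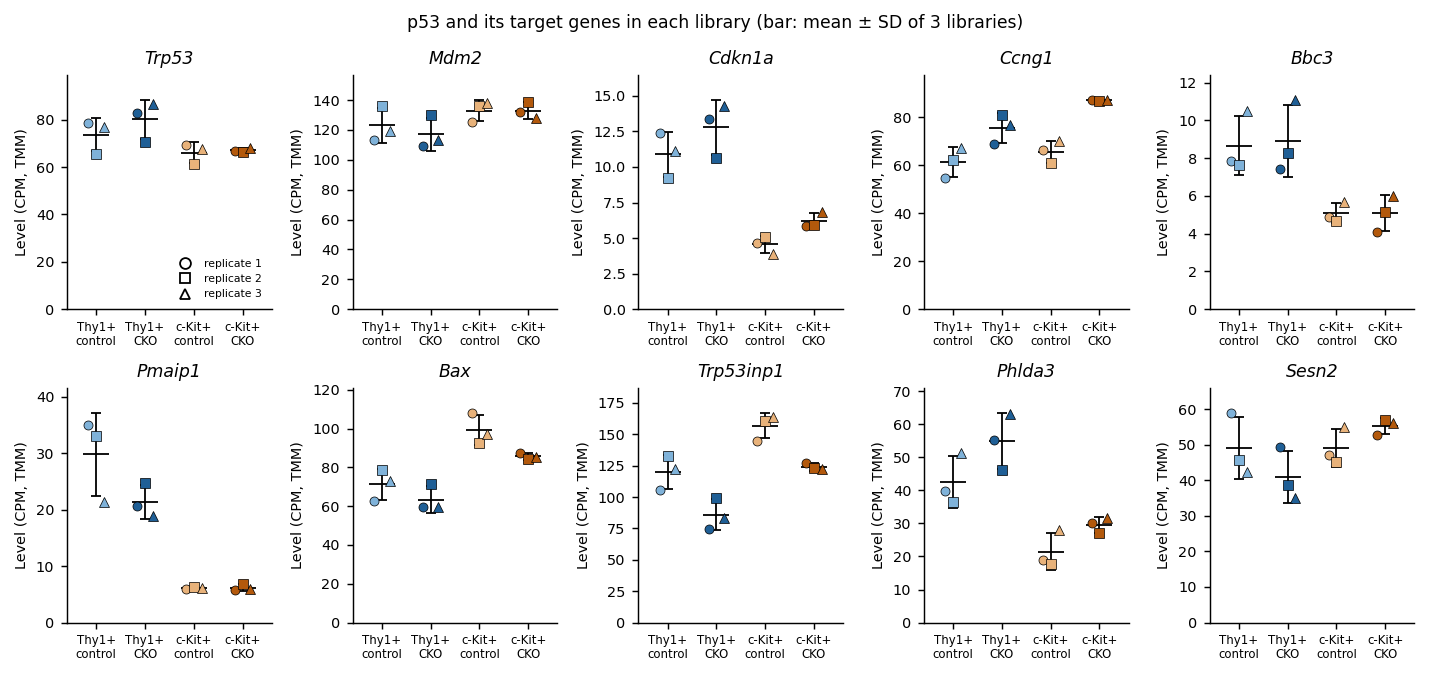
Level (CPM, TMM-scaled, axes from 0) of each of the 10 genes in each library, with the mean and SD of 3 libraries as a bar and the replicate number as the marker shape. Pmaip1, Cdkn1a, Phlda3 and Bbc3 were higher in Thy1+ than in c-Kit+ libraries, and Trp53inp1 was lower and Ccng1 higher in every CKO library than in every control library of the same population.

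The first comparison asked whether the p53 genes differ between CKO and control c-Kit+ libraries. None of the 10 genes was called, meaning a false discovery rate (FDR, Benjamini-Hochberg) under 0.05 together with a log2 fold change beyond 0.5 in either direction, by the quasi-likelihood test of edgeR. Of all 17134 genes tested, 22.2% were called, 14.8% higher and 7.41% lower in CKO. The edgeR exact test and DESeq2 also called 0 of the 10 genes, and so did a fit that kept the replicate number as a term (23.3% of all genes called). *Trp53* itself differed by −0.04 on the log2 scale (SE 0.07, FDR = 0.708, CKO minus control). The fit of all 12 libraries gave 0.02, and the mean CPM, scaled over 12 libraries, was 67.0 in CKO and 66.1 in controls.

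Although no gene passed both limits, 3 of the 10 passed the FDR alone, where 39.2% of all genes did, and 5 had an unadjusted p under 0.05 (47.8% of all genes). *Ccng1* was 1.27-fold higher in CKO (log2 0.35, SE 0.07, FDR = 0.00383). *Trp53inp1* was at 0.76 of its control level (log2 −0.40, SE 0.07, FDR = 0.00129) and *Bax* at 0.83 (log2 −0.27, SE 0.07, FDR = 0.014). The direction was thus not shared, with 1 of these targets higher and the others lower. *Cdkn1a* differed by 0.39 (SE 0.17, FDR = 0.0937) and *Phlda3* by 0.40 (SE 0.16, FDR = 0.0727). For *Phlda3* the result turned on control replicate 3, without which the difference was 0.63 (FDR = 0.00472) and the gene was called, and with replicate number as a block its FDR was 0.0126 at 0.43. In that blocked fit 4 of the 10 genes passed the FDR, *Phlda3* being the fourth, where 43.4% of all genes did. DESeq2 passed the same 4 genes, and the fit of 12 libraries passed *Ccng1* and *Trp53inp1* only. *Mdm2* (−0.06), *Bbc3* (−0.06), *Pmaip1* (−0.05) and *Sesn2* (0.12) had FDRs of 0.33 or higher. The groups did not overlap for 4 of the 10 genes (52.2% of all genes), and the median of the 10 log2 fold changes was −0.04, beside 0.01 over all genes.

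**Figure D3:**
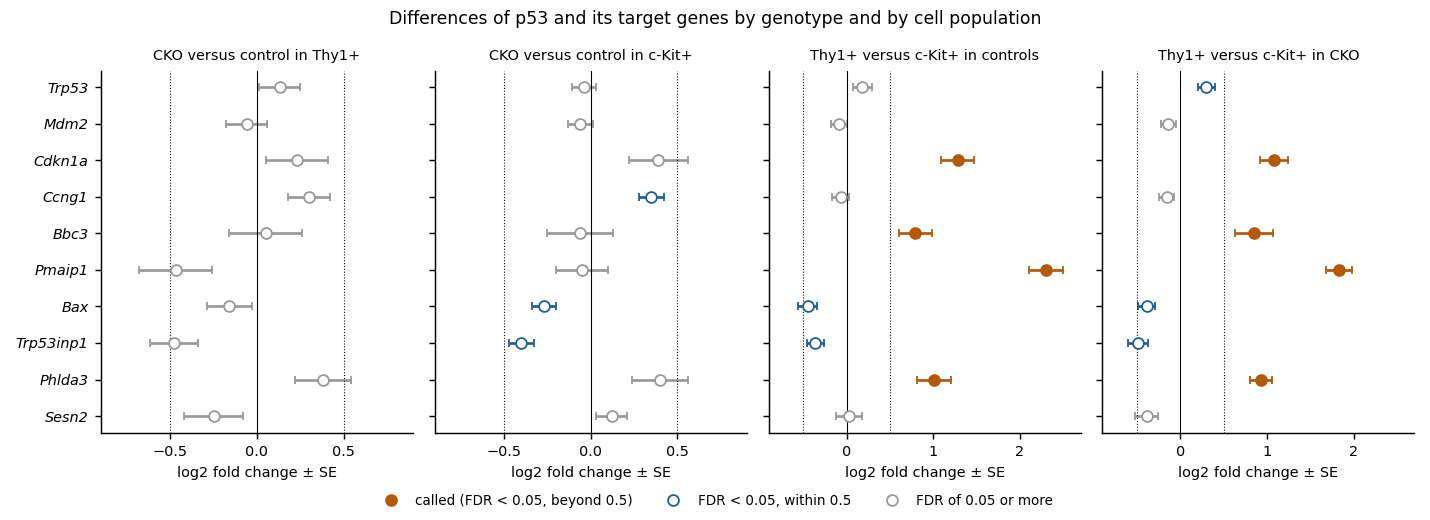
log2 fold change ± SE of the 10 genes in 4 comparisons, by edgeR's quasi-likelihood test on 6 libraries each; dotted lines mark 0.5 in either direction. No gene was called between genotypes, and Cdkn1a, Bbc3, Pmaip1 and Phlda3 were called between populations in both genotypes.

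The wider p53 network was described from lists of genes taken by name as regulators or targets. Whether p53 controls each listed gene in mouse spermatogonia, *Ddb2* included, was not measured. Among 48 tested targets outside the 10 genes, 11 rose and 1 fell in CKO c-Kit+ cells, with a median of 0.02, in a comparison that called 22.2% of all genes. The largest change was a fall in *Ddb2*, the damage sensor of nucleotide excision repair, from 45.1, 60.9 and 67.5 CPM (sorted) in controls to 20.2, 22.2 and 23.2 CPM in CKO (log2 −1.46, SE 0.14, FDR = 1.7e-04). It was the only called gene of 7 repair targets. Of 15 apoptosis targets 5 rose, led by *Dram1*, a lysosomal regulator of autophagy (1.83 to 2.72 CPM in controls, 4.97 to 6.11 CPM in CKO, log2 1.20, FDR = 0.00148), and by *Shisa5* (17.6 to 22.9 CPM and 32.3 to 40.9 CPM, log2 0.84, FDR = 7.4e-04). The others, named after their values were seen, were *Zmat3* (0.75), *Eda2r* (0.74) and *Steap3* (0.64). Of 15 metabolic targets 4 rose, led by *Ddit4*, an inhibitor of mTORC1 (log2 1.15, FDR = 0.00191), and by *Pank1*, which starts coenzyme A synthesis (log2 0.83, FDR = 3.3e-04), with *Sat1* (0.82) and *Fdxr* (0.80) named after their values were seen. The arrest targets *Btg2* (log2 0.88, FDR = 0.0298) and *Plk2* (log2 0.70, FDR = 0.0223) rose out of 11. Both calls were lost without CKO replicate 1, without control replicate 2 or without control replicate 3, with FDRs from 0.0575 to 0.128, and that of *Btg2* also with DESeq2 (FDR = 0.103) and in the fit of 12 libraries (FDR = 0.0692).

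Upstream of p53, 3 of 22 regulators fell and 1 rose in CKO c-Kit+ cells, beside 22.2% of all genes called, and the median was −0.16. *Atr*, the kinase that signals stalled replication, had 308, 393 and 476 CPM (sorted) in controls and 193, 203 and 207 CPM in CKO (log2 −1.02, SE 0.13, FDR = 3.7e-04). *Atm*, the kinase that signals double-strand breaks, had 359, 419 and 491 CPM in controls and 263, 283 and 292 CPM in CKO (log2 −0.66, SE 0.10, FDR = 8.5e-04). *Chek1*, the kinase activated by ATR, was the third gene that fell (log2 −0.58, FDR = 6.6e-04), and was named after its values were seen. *Pml*, the scaffold of nuclear bodies to which p53 is recruited, rose (log2 0.59, FDR = 0.00166). *Mdm4*, the partner of MDM2, differed by 0.04 (FDR = 0.674). Of the p53 family, *Trp63* rose at a low level (2.26 to 2.53 CPM in controls, 3.24 to 4.58 CPM in CKO, log2 0.63, FDR = 0.0338). This call was lost without any 1 of 5 of the 6 libraries (all but CKO replicate 3), with FDRs from 0.0559 to 0.133. *Trp73* differed by 0.32 (FDR = 0.534).

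Genes that p21 represses through the DREAM complex fell in 3 of 18 cases and rose in none, with a median of −0.19. Of all genes, 22.2% were called in this comparison, 14.8% higher and 7.41% lower. *Bub1*, a kinase of the spindle checkpoint, had 190 to 295 CPM in controls and 140 to 154 CPM in CKO (log2 −0.76, FDR = 0.00148), and *Ect2*, which is needed for cytokinesis, followed (log2 −0.66, FDR = 6.4e-04). The third was *Kif23* (log2 −0.63, FDR = 7.6e-04), named after its values were seen. None of 11 genes of the integrated stress response, which also controls *Sesn2*, was called by the quasi-likelihood test. The FDR alone was passed by 3 of them, where 39.2% of all genes passed it. With replicate number as a block, *Atf3* (1.08), *Slc7a11* (1.15) and *Ddit3* (0.53) were called higher, and these were named after their values were seen. That fit called 23.3% of all genes. *Shmt2* (log2 −0.37, FDR = 0.00164) and *Asns* (log2 0.32, FDR = 0.00864) had the lowest p-values of the list.

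Other gene groups moved with genotype in the same c-Kit+ libraries, where 14.8% of all genes were called higher and 7.41% lower. Of 46 tested somatic markers 30 rose and 1 fell in CKO, among them 6 of 6 stromal, 8 of 9 Sertoli, 5 of 6 endothelial, 4 of 6 Leydig, 3 of 5 myoid, 1 of 7 macrophage and 3 of 4 tested mast cell markers. With replicate number as a block, 23.3% of all genes were called. In that fit 38 somatic markers rose, among them 6 of 6 Leydig and 5 of 7 macrophage markers, and 12 of 12 immediate early genes. The erythroid marker tested did not pass, and of 2 tested T-cell markers *Cd3e* fell. All 4 T-cell markers together summed to only 5.33 to 7.98 CPM in controls and 2.04 to 3.36 CPM in CKO. Sertoli markers summed to 564 to 1426 CPM in controls and 2240 to 2433 CPM in CKO, and no defining marker of the stromal, Sertoli, endothelial or Leydig list was at 0. Immediate early genes are induced within minutes when cells are dissociated or stimulated. The list of 12 held *Fos*, *Fosb*, *Jun*, *Junb*, *Egr1*, *Ier2*, *Ier3*, *Dusp1*, *Nr4a1* and *Zfp36*, and also the heat shock genes *Hspa1a* and *Hspa1b*. Of these 12 genes 10 rose, *Egr1* by 1.06 (FDR = 0.00549) and *Nr4a1* by 1.04 (FDR = 0.0135) on the log2 scale. Their sum was 1283 to 2872 CPM in controls and 3469 to 5233 CPM in CKO. The count of 10 fell to 5 with DESeq2 and to 4 without CKO replicate 1 or without control replicate 3, and the same omissions ended the call of *Nr4a1*. Of 8 germ cell markers, *Tex101* fell (log2 −1.96, FDR = 1.3e-04) and 7 were not called, at a median of −0.30 over the list. The part of these groups in the differences of the p53 genes was not tested.

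**Figure D4:**
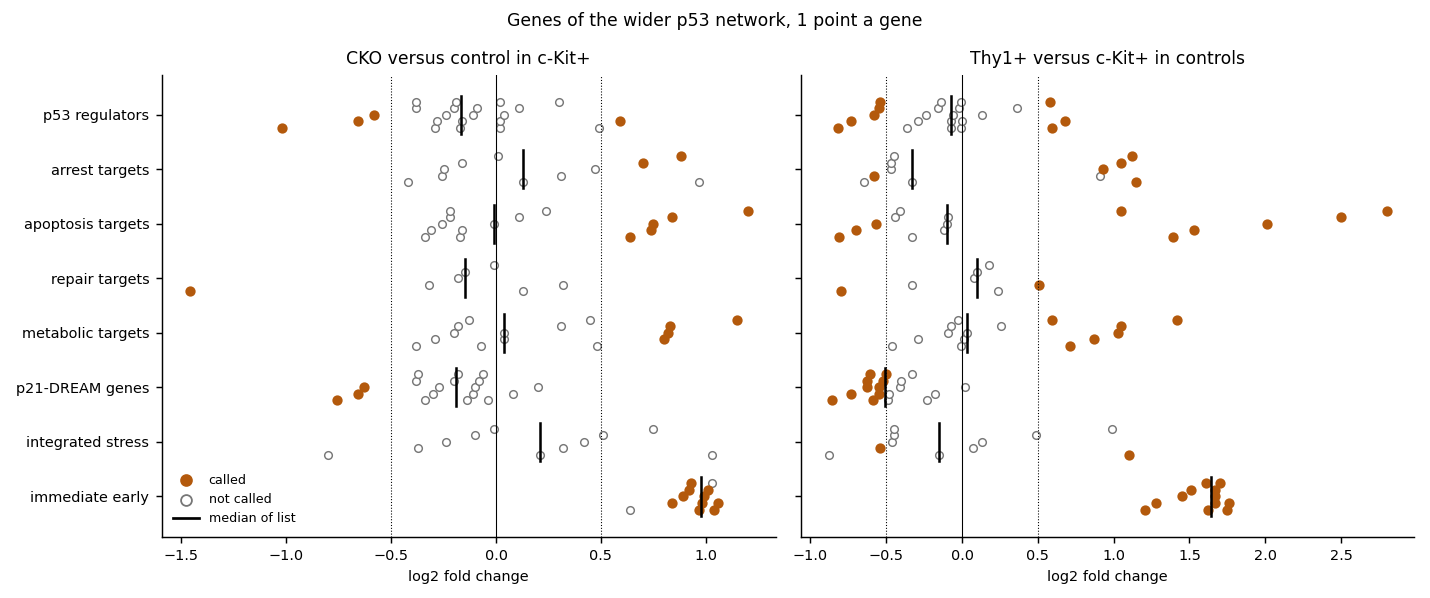
log2 fold change of the genes of 8 lists (1 point a gene, filled where called, line at the list's median) for CKO against control c-Kit+ libraries and for Thy1+ against c-Kit+ control libraries. Apoptosis and metabolic targets scatter on both sides of 0 with medians of −0.01 and 0.04 in the left panel, while immediate early genes lie together at a median of 0.97.

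In Thy1+ libraries the same question gave no call for any of the 10 genes, nor for any of 17416 genes (0%), by edgeR's quasi-likelihood test. These libraries also held RNA of somatic cells, and the genotype effect in germ cells alone was not measured. The edgeR exact test called 319 and DESeq2 378 of all genes, and both called 0 of the 10. At an unadjusted p under 0.05 there were 3 of the 10 genes and 2151 (12.4%) of all genes. *Trp53inp1* was at 0.716 of its control level (log2 −0.48, SE 0.14, FDR = 0.3), lower in 3 of 3 same-numbered pairs, and it was the only one of the 10 to pass the FDR in the fit of 12 libraries. *Ccng1* was 1.24-fold higher (log2 0.30, SE 0.12, FDR = 0.377) and *Phlda3* 1.3-fold higher (log2 0.38, SE 0.16, FDR = 0.404), both in 3 of 3 pairs. *Pmaip1* was at 0.722 of its control level (log2 −0.47, SE 0.21, FDR = 0.406). *Trp53* differed by 0.13 (SE 0.12, FDR = 0.639), *Cdkn1a* by 0.23 (SE 0.18, FDR = 0.582) and *Mdm2* by −0.06 (SE 0.12, FDR = 0.839). The groups did not overlap for 2 of the 10 genes, *Ccng1* and *Trp53inp1* (17.2% of all genes). The median over the 10 genes was −0.01, beside 0.02 over all genes.

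Same-numbered Thy1+ libraries deviated together from their group means, and a fit with that number as a block gave other results. In it, 5 of the 10 genes passed the FDR, where 29.2% of all genes did, but none passed the limit on the fold change (8.12% of all genes were called). *Trp53inp1* differed by −0.48 (SE 0.06, FDR = 1.5e-05), *Pmaip1* by −0.45 (SE 0.10, FDR = 0.00341) and *Sesn2* by −0.26 (SE 0.07, FDR = 0.0108). *Phlda3* differed by 0.38 (SE 0.07, FDR = 7.2e-04) and *Ccng1* by 0.31 (SE 0.06, FDR = 0.00185). These 5 genes were divided in direction, 3 lower and 2 higher in CKO.

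None of the 47 wider targets, 22 regulators, 2 family members, 18 DREAM genes, 11 stress response genes and 12 immediate early genes tested in Thy1+ cells was called by the quasi-likelihood test without the block, while DESeq2 called 1 wider target lower, *Ddb2*. The lowest p-values among the targets were those of *Ddb2*, with 23.7, 38 and 36.7 CPM in controls and 18.8, 21.7 and 20.4 CPM in CKO (log2 −0.69, SE 0.19, FDR = 0.293), and of *Pank1*, with 68, 50.6 and 74.9 CPM in controls and 112, 75.8 and 106 CPM in CKO (log2 0.61, SE 0.19, FDR = 0.309). For both genes, which were picked by their low p-values, no CKO library overlapped a control library, as was so for 17.2% of all genes. Among regulators *Huwe1* (log2 −0.43, FDR = 0.33) and *Atr* (log2 −0.51, FDR = 0.347) had the lowest p-values, and among DREAM genes *Cdk1* (log2 0.29, FDR = 0.352) and *Nek2* (log2 −0.36, FDR = 0.493). Of the p53 family, *Trp63* differed by 0.03 (FDR = 0.961) and *Trp73* by 0.12 (FDR = 0.931). With the block, by which 29.2% of all genes passed the FDR and 8.12% were called, 4 of the wider targets were called. They were *Ddb2* (−0.66, FDR = 1.9e-04) and *Gls2*, a glutaminase named after its values were seen (−0.79, FDR = 0.01), which were lower, and *Btg2* (0.67, FDR = 1.9e-06) and *Pank1* (0.61, FDR = 6.8e-06), which were higher. *Huwe1* (−0.44, FDR = 9.5e-05) and *Atr* (−0.50, FDR = 6.4e-05) passed the FDR in it without reaching the fold limit. In the same fit 10 of 12 immediate early genes and 12 of 50 somatic markers, 7 of them of the 9 Sertoli markers, were called higher, while 3 of 8 germ cell markers were called lower and 8 of 8 passed the FDR, and the part of these groups was not tested. Sertoli markers summed to 467 to 2031 CPM in controls and 904 to 2636 CPM in CKO.

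The difference between the genotype effects of the populations was tested as an interaction over all 12 libraries (c-Kit+ effect minus Thy1+ effect). It was called for 0 of the 10 genes and 0 of 18002 genes (0%) by edgeR's quasi-likelihood test, and DESeq2 called 0 of the 10 and 64 of all genes. At an unadjusted p under 0.05 there were 0 of the 10 genes and 1804 (10%) of all. With replicate number as a block, 0 of the 10 genes and 2.48% of all genes passed. *Sesn2* had the lowest p (0.44, SE 0.21, FDR = 0.504), followed by *Pmaip1* (0.49, SE 0.25, FDR = 0.541). For *Ccng1* the difference was 0.11 (SE 0.13, FDR = 0.838) and for *Trp53inp1* 0.15 (SE 0.15, FDR = 0.793). A difference between populations was thus not shown for any of them. In the wider lists *Dram1* (1.02, SE 0.28, FDR = 0.386) and *Ddit4* (1.27, SE 0.41, FDR = 0.397) had the lowest p-values for a larger effect in c-Kit+ cells, and *Ddb2* differed by −0.71 (SE 0.25, FDR = 0.415). With the block, in which the libraries were not shown to be paired, 4 wider targets were called higher, namely *Ddit4* (1.32, FDR = 0.0236), *Shisa5* (0.62, FDR = 0.0263), *Fdxr* (0.47, FDR = 0.0348) and *Gpx1* (0.47, FDR = 0.038), and *Ddb2* was called lower (−0.72, FDR = 0.0384).

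The next comparison was between populations of the same genotype. In controls, 4 of the 10 genes were higher in Thy1+ than in c-Kit+ cells and none was lower, against 27.8% of 17350 genes called, 20.7% higher and 7.08% lower. *Pmaip1* was 4.92-fold higher (log2 2.30, SE 0.20, FDR = 7.2e-05), *Cdkn1a* 2.43-fold (log2 1.28, SE 0.19, FDR = 0.00142), *Phlda3* 2.01-fold (log2 1.01, SE 0.20, FDR = 0.00545) and *Bbc3* 1.73-fold (log2 0.79, SE 0.19, FDR = 0.0133). These 4 genes encode the arrest factor p21, both BH3-only proteins and the AKT inhibitor. The call of *Bbc3* was lost without Thy1+ replicate 3 (0.59, FDR = 0.0587) and without c-Kit+ replicate 2 (0.74, FDR = 0.0561). *Bax*, at 0.73 of the c-Kit+ level (log2 −0.45, SE 0.11, FDR = 0.0123), and *Trp53inp1*, at 0.781 (log2 −0.36, SE 0.10, FDR = 0.0219), passed the FDR alone, which made 6 of the 10 genes (37.6% of all). The groups did not overlap for the same 6 genes (54.3% of all). *Bax* was called with library size as the only scaling (−0.54), and without Thy1+ replicate 2 (−0.57) or 3 (−0.51). *Trp53* (0.18, SE 0.11, FDR = 0.209), *Mdm2* (−0.09, SE 0.09, FDR = 0.457), *Ccng1* (−0.07, SE 0.10, FDR = 0.609) and *Sesn2* (0.03, SE 0.15, FDR = 0.893) did not pass the test. The median over the 10 genes was 0.11, beside 0.03 over all genes. Scaling moved the split of all calls, of which 74.5% were higher in Thy1+ with TMM and 63.7% with library size only.

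In CKO cells the same 4 genes were called higher in Thy1+, with 20.3% of 17346 genes called, 15.3% higher and 5.03% lower. The values were 1.83 (SE 0.15, FDR = 7.8e-05) for *Pmaip1*, 1.08 (SE 0.16, FDR = 0.00182) for *Cdkn1a*, 0.93 (SE 0.13, FDR = 0.00104) for *Phlda3* and 0.85 (SE 0.22, FDR = 0.0207) for *Bbc3* on the log2 scale. The call of *Bbc3* was lost without Thy1+ replicate 3 or without c-Kit+ replicate 1 or 2, with FDRs from 0.0707 to 0.0779. *Trp53* passed the FDR alone (0.30, SE 0.10, FDR = 0.0481), as did *Bax* (−0.39, FDR = 0.0211) and *Trp53inp1* (−0.49, FDR = 0.014), in all 7 of the 10 genes against 27.3% of all. The pass of *Trp53* was lost with DESeq2 size factors, library size only, no filter on counts, the fit of 12 libraries and the omission of any library but Thy1+ replicate 2. The groups did not overlap for 9 of the 10 genes, all but *Mdm2* (50.1% of all), and 8 had an unadjusted p under 0.05 (42% of all). With replicate number as a block 8 passed the FDR, *Sesn2* being added (33.9% of all). *Trp53inp1* was called with library size only (−0.57), in the fit of 12 libraries (−0.53) and without Thy1+ replicate 2 (−0.59) or c-Kit+ replicate 3 (−0.52), and *Sesn2* (−0.39, FDR = 0.0532) without Thy1+ replicate 1 (−0.53). Of all calls, 75.3% were higher in Thy1+ with TMM and 63.3% with library size only. That scaling moved the median of all genes from −0.03 to −0.12.

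In controls, 20.7% of all genes were called higher in Thy1+ cells and 7.08% lower. Among the wider targets 17 of 48 were higher and 5 lower, with a median of 0.02. The count of lower genes was 9 with library size only or without Thy1+ replicate 2, 3 without Thy1+ replicate 1 and 2 without c-Kit+ replicate 2. Apoptosis targets showed the widest range. *Dram1* had 1.83, 2.27 and 2.72 CPM (sorted) in c-Kit+ and 12.5, 16.7 and 17.4 CPM in Thy1+ libraries (log2 2.80, FDR = 4.5e-05), and *Steap3*, a ferrireductase, had 13.3, 13.4 and 14.4 CPM and 58.1, 80.4 and 89.4 CPM (log2 2.50, FDR = 2.4e-05). In the other direction, *Rps27l* had 105, 111 and 118 CPM in c-Kit+ and 60.9, 69.4 and 72.3 CPM in Thy1+ libraries (log2 −0.70, FDR = 7.0e-04). *Pidd1*, named after its values were seen, was the third lower gene (log2 −0.57, FDR = 0.0108). *Perp* (log2 −0.81, FDR = 0.0415) lost its call in 5 of the 6 omissions of a library (all but Thy1+ replicate 2), with FDRs from 0.0764 to 0.128. Of 15 metabolic targets 6 were higher, led by *Ddit4* (log2 1.42, FDR = 0.00968) and *Sesn1*, a relative of *Sesn2* (30.7 to 34.3 CPM and 56.3 to 70.5 CPM, log2 1.05, FDR = 2.8e-04). Of 11 arrest targets 4 were higher and 1 was lower. *Plk3* led them (log2 1.15, FDR = 0.00703), with *Plk2* (1.05) named after its values were seen, while *Btg2* (2.18-fold, FDR = 0.035) and *Fbxw7* (log2 −0.58, FDR = 0.0119) each lost their call in the absence of Thy1+ replicate 1 or c-Kit+ replicate 2, and *Btg2* also without replicate 3 of either population or with DESeq2. In the repair list *Ddb2* was lower (log2 −0.80, FDR = 0.0162), a call lost without c-Kit+ replicate 2 or 3, and *Polk* was higher at the limit (log2 0.51, FDR = 0.0182), a call lost under 10 of 14 alternatives.

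Of the 22 regulators 3 were higher and 5 lower in Thy1+ controls, beside 20.7% and 7.08% of all genes. *Cdkn2a*, whose ARF product blocks MDM2, had 72.2, 78.7 and 80.6 CPM (sorted) in c-Kit+ and 36.6, 44.8 and 56.3 CPM in Thy1+ libraries (log2 −0.73, SE 0.15, FDR = 0.00667), and *Atr* was also lower (log2 −0.82, SE 0.19, FDR = 0.0111). *Usp10*, which removes ubiquitin from p53, was higher (log2 0.68, FDR = 0.00969), but at 0.49 without Thy1+ replicate 1, and *Rpl11*, which binds MDM2, was higher (log2 0.59, FDR = 0.00161), but at 0.50 with library size only. *Pml* (0.58), *Atm* (−0.58), *Chek1* (−0.55) and *Sirt1* (−0.54) were the other called regulators, named after their values were seen. Genes repressed through DREAM were lower in 10 of 18 cases and higher in none, at a median of −0.51, led by *Bub1* (log2 −0.86, FDR = 0.0167) and *Kif23* (log2 −0.73, FDR = 0.0154). Without Thy1+ replicate 1 this count was 4 and without c-Kit+ replicate 2 it was 6, against 15 without Thy1+ replicate 2, and the omission of c-Kit+ replicate 2 ended the calls of *Bub1* and *Kif23*. Of 11 stress response genes, *Ppp1r15a* was higher (2.14-fold, FDR = 0.00275) and *Psat1* lower (log2 −0.54, FDR = 0.00256). Of the p53 family, *Trp63* differed by 0.57 (FDR = 0.0957) and *Trp73* by −0.54 (FDR = 0.31).

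In CKO cells, 15.3% of all genes were called higher in Thy1+ and 5.03% lower. Among the wider targets 13 of 48 were higher and 4 lower, with a median of 0.07. When 1 library was left out, 6 to 16 of these targets were higher and 1 to 6 lower. Without c-Kit+ replicate 1 or 3 the count of lower genes was 1, and with library size only it was 8. *Steap3* (log2 2.11, FDR = 6.3e-05) and *Fas*, the death receptor (0.695 to 0.998 CPM in c-Kit+ and 3 to 4.44 CPM in Thy1+ libraries, log2 2.09, FDR = 9.5e-04), led the apoptosis targets. *Ddb2*, which was lower in Thy1+ controls, had 18.8 to 21.7 CPM in Thy1+ and 20.2 to 23.2 CPM in c-Kit+ libraries and was not called. Of the regulators, *Hipk2*, a kinase of p53, was lower (25.9 to 34.4 CPM and 12 to 17.9 CPM, log2 −0.89, FDR = 0.00676). *Cdkn2a* was also lower (log2 −0.70, FDR = 0.0153), a call that ended without Thy1+ replicate 3 or c-Kit+ replicate 1 or 2. Of the stress response genes, *Slc7a11*, the cystine transporter, was lower (log2 −1.54, FDR = 0.00572) and *Ppp1r15a* higher (log2 0.92, FDR = 0.00728). Among 18 DREAM genes 4 were lower, led by *Nek2* (log2 −0.57, FDR = 0.0195) and *Ttk* (log2 −0.57, FDR = 0.0403), and this count ran from 0 to 11 when 1 library was left out, being 11 without Thy1+ replicate 2 and 0 or 1 without any other.

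Markers of other cells moved with population on a larger scale than most p53 genes. In controls all 6 stromal and all 7 macrophage markers and 4 of 5 myoid markers were higher in Thy1+ cells. Lower were 5 of 6 Leydig markers and 3 of 4 tested mast cell markers. The shares over all genes were 20.7% higher and 7.08% lower. None of 9 Sertoli markers was called. Of the T-cell markers *Cd3g* and *Cd3d* were higher. Their level was low, since all 4 T-cell markers summed to 5.33 to 7.98 CPM in c-Kit+ and 9.06 to 9.52 CPM in Thy1+ libraries. Of the germ cell markers *Zbtb16*, which marks undifferentiated spermatogonia, was higher (log2 1.04, FDR = 1.7e-04) and *Dazl*, *Uchl1* and *Tex101* were lower. All 12 immediate early genes were higher, with a sum of 1283 to 2872 CPM in c-Kit+ and 4034 to 7293 CPM in Thy1+ libraries, *Fos* by 1.76 (FDR = 0.00376) on the log2 scale. In CKO cells, where 15.3% of all genes were called higher in Thy1+ and 5.03% lower, 23 of 49 somatic markers were higher and 10 lower. All 6 stromal, 7 macrophage and 4 T-cell markers were higher, and all 6 Leydig and 4 tested mast cell markers were lower. All 12 immediate early genes were higher. The T-cell markers summed to 2.04 to 3.36 CPM in CKO c-Kit+ and 10 to 12.1 CPM in CKO Thy1+ libraries. The part of all these marker groups in the higher *Cdkn1a*, *Phlda3*, *Bbc3* and *Pmaip1* was not tested.

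**Figure D5:**
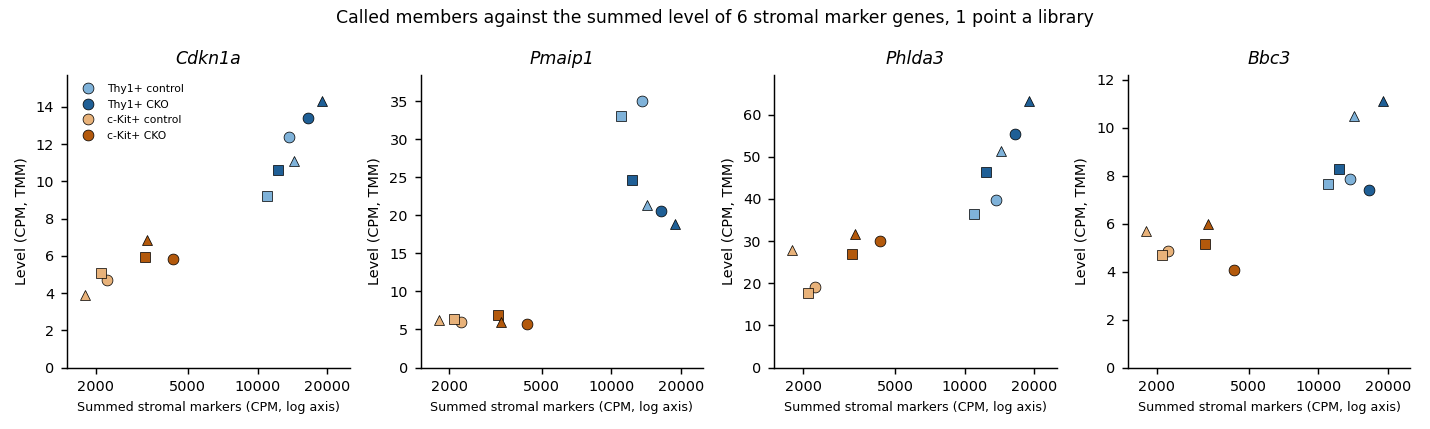
Level (CPM, TMM-scaled) of the 4 genes called between populations against the summed level of 6 stromal marker genes (CPM, log axis), 1 point a library. Thy1+ libraries lie at 10996 to 18949 CPM of stromal markers and c-Kit+ libraries at 1794 to 4320 CPM, with no overlap on either axis for these 4 genes.

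Across the 12 libraries, the genes whose log2 CPM followed *Cdkn1a* most closely among 13675 others were *Sike1* (Pearson's r = 0.991), *Tnfrsf21* (r = 0.99) and *Ccdc50* (r = 0.989). For *Trp53* they were *P3h1* (r = 0.959), *Lamtor3* (r = 0.955) and *Zfp865* (r = 0.955). These values describe libraries that fall into 2 populations, which share their sort and scaling. *Tnfrsf21*, for example, had 5.14 to 6.84 CPM in control and 10.8 to 12.7 CPM in CKO c-Kit+ libraries, and 21.6 to 32.2 CPM in control and 27 to 35.3 CPM in CKO Thy1+ libraries. None of the other 9 p53 genes was among the closest 3 of either gene. Their correlations with *Trp53* ran from −0.918 for *Mdm2* to 0.83 for *Phlda3*. With *Cdkn1a* they ran from −0.956 for *Bax* to 0.894 for *Phlda3*.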

How the data were processed

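Raw counts per gene of 12 libraries were deposited; the other 30 samples of the series (ChIP-seq) were not analysed here. The authors trimmed paired-end reads (Trimmomatic 0.39), aligned them to mm10 (HISAT2 2.1.0) and counted them on RefSeq exons with featureCounts (2.0.3 in the file header). The command sets neither strand nor fragment counting, and 65.6% to 69.5% of counts from 1 to 19 were even, so both reads of a fragment were mostly counted and counts overstate depth (32266861 to 45396233 per library). No exon of the 10 genes overlaps an exon of another gene of the table.

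Counts were tested with edgeR 4.0.16 (R 4.3.3; quasi-likelihood F test, TMM, filterByExpr, Benjamini-Hochberg adjustment over all tested genes), within 6 libraries for each comparison and over 12 for the interaction. Calls needed FDR under 0.05 and, except in the interaction, an absolute log2 fold change over 0.5. Standard errors are the log2 fold change divided by the square root of F. DESeq2 1.42.0, the edgeR exact test and other scalings and filters were alternatives. The test was tested on simulated counts.

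Genes, lists and tests were chosen with earlier results of these data known. Named were the 10 genes, *Chd8*, *Thy1* and *Kit*, for each list at most the 2 largest called changes in each direction (the 2 lowest p-values where none was called), and the 3 genes most correlated with *Trp53* and *Cdkn1a* (mean log2 CPM of at least 1). In the sources used here nothing ties libraries by number. Same-numbered libraries correlated after removal of group means, at 0.266 to 0.49 in Thy1+, 0.101 to 0.125 in c-Kit+ and 0.134 to 0.298 between controls. These values were above the limit of 0.1, and fits with the number as a block were run as alternatives. The main fits held the group only, so results not marked as blocked take no account of this pairing. 1 gene of the lists counts in the totals and is not reported here. Libraries of a group differed by more than counting error (chi-square per degree of freedom 10.3 to 72.4).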

Additional observations from a re-analysis of the deposited data

Results flagged for a closer look

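One of the 10 genes and 4 of the reported genes of the wider lists moved in opposite directions in the 2 populations in every same-numbered pair of a CKO and a control library. *Sesn2* was lower in CKO in all 3 pairs of Thy1+ libraries and higher in all 3 pairs of c-Kit+ libraries, and the difference between both effects (c-Kit+ minus Thy1+) was 0.44 on the log2 scale (SE 0.21, FDR = 0.504 in edgeR's quasi-likelihood test). The repair factor *Pcna* had 141, 168 and 157 CPM in control and 160, 170 and 161 CPM in CKO Thy1+ libraries, but 188, 217 and 189 CPM in control and 165, 169 and 161 CPM in CKO c-Kit+ libraries, a difference of −0.34 (SE 0.12, FDR = 0.407). The differences were −0.26 for *Rps27l* (FDR = 0.493), 0.54 for the kinase *Hipk2* (FDR = 0.464) and 0.54 for the serine synthesis enzyme *Phgdh* (FDR = 0.448). None of these 5 differences passed the test. The share of all genes with this pattern is not given here, so these 5 are not set apart from other genes. Pairing by number was also not shown for the interaction (10 of 18 pairs over 0.1).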

How the results depend on the processing

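Of 78 recomputed counts of called genes, 75 were equal to the reported count or within 1.5 times of it. Without a minimum on the fold change, 3 of the 10 genes instead of 0 counted as called between genotypes in c-Kit+ and 7 instead of 4 between populations in CKO. Leaving out 1 library gave counts of 0 to 1 for genotype in c-Kit+, 0 for genotype in Thy1+, 3 to 5 between populations in controls and in CKO, and 0 for the interaction.

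Of 740 recomputed log2 fold changes of the 10 genes, 30 changed sign, and none of these had exceeded 0.15 in size. In the fit of all 12 libraries, *Trp53* (0.02) and *Pmaip1* (0.01) did so between genotypes in c-Kit+. *Sesn2* did so between populations in controls, at −0.01 with DESeq2, with its size factors or with at least 1 CPM in at least 3 libraries, at −0.06 with library size only, and at −0.15 to 0.09 with 1 library left out. *Mdm2* did so in the interaction with DESeq2 or its size factors (−0.02). With 1 library left out, genotype differences ranged from −0.16 to 0.03 for *Mdm2* and from −0.14 to 0.20 for *Bbc3* in Thy1+, and from −0.20 to 0.07 for *Bbc3* in c-Kit+. Interactions then ranged from −0.10 to 0.14 for *Mdm2*, from −0.26 to 0.14 for *Bbc3*, from −0.20 to 0.05 for *Bax*, from −0.02 to 0.27 for *Trp53inp1* and from −0.07 to 0.32 for *Phlda3*. The causes were not tested.

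With the replicate number as a block, 0 of the 10 genes were called between genotypes in either population and 4 between populations in either genotype, as without it. The pairing was not shown for the CKO populations (1 of 3 same-numbered pairs over 0.1) or for the interaction (10 of 18 pairs); there the block gave 3888 instead of 3525 calls and 446 instead of 0 calls over all genes, with 0 of the 10 genes called in the interaction. Of the named calls in the wider lists, 11 of 15 held in every alternative for genotype in c-Kit+, 12 of 21 between the control populations and 9 of 19 between the CKO populations. Over all genes, the exact test (319), DESeq2 (378), the fit of 12 libraries (250) and the block (1414) made calls between genotypes in Thy1+ where the quasi-likelihood test made 0, and DESeq2 (64) and the block (446) did so in the interaction. The block changed no call of the 10 genes. Depth limits the genes with few counts most, and *Cdkn1a* and *Bbc3* had 134 to 243 counts in c-Kit+ libraries.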
